A study of Mus musculus with 4 samples.

Results

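Dppa2, Dppa3, Dppa4 and Dppa5a are the mouse genes of the developmental pluripotency associated (Dppa) group with more than 1 UMI in these embryonic stem cells. They were taken by symbol and make up 4 of the 32285 genes in the matrix. Single-cell transcriptomes had been collected from E14tg2a.4, a male mouse embryonic stem cell (mESC) line, as 2 WT samples, and from CG0630, a gene-trap line made in E14tg2a.4 that carries a heterozygous truncation of Srrm2, as 2 Srrm2 hKO samples. The Srrm2 hKO line is 1 clone, both lines were grown with the self-renewal cytokine LIF, and the labels give 24 h or 72 h in serum-free medium without tying either to a sample, while the study's methods give a single culture time under regular conditions for all 4 single-cell samples. The deposited counts form 1 matrix in which each cell carries a library number from 1 to 4, and no source used here ties a number to WT or Srrm2 hKO, so no genotype comparison was made. All values below are given by library number, and a difference between libraries is a difference between single samples whose error beyond counting is unknown.

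The group shares a name and an expression pattern rather than a sequence family. Dppa2 and Dppa4 are related chromatin proteins with a SAP domain (a DNA-binding fold) that act as a pair, hold developmental promoters in a poised state in mESC and can switch on genes of the two-cell embryo. Dppa3, also called Stella or PGC7, is a maternal and germ-cell factor that keeps the methylation cofactor Uhrf1 off chromatin, and in mESC culture it is known to be present in some cells and absent from others. Dppa5a, also called Esg1, is a short RNA-binding protein with a KH domain and one of the more abundant transcripts of naive mESC.

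In the GRCm38 annotation (mm10, the build of the files), Dppa4 lies on the plus strand of chromosome 16 from 48283733 to 48294237. Dppa2 follows it on the same strand from 48303908 to 48319723, with 9671 bp between the 2 genes. Dppa3 lies on chromosome 6 from 122626410 to 122630272, plus strand, with Gdf3 at a distance of 16323 bp and Nanog at 77217 bp. Dppa5a lies on chromosome 9 from 78367052 to 78368177, minus strand, and 7932 bp separate it from Ooep, which encodes another KH-domain protein. All 4 genes are protein coding and the matrix uses the same gene identifiers. Similar sequences are common for this group: transcripts of 10 other annotated genes match Dppa5a over at least 100 bp at 90% identity or more, and the corresponding numbers are 6 for Dppa2, 3 for Dppa3 and 2 for Dppa4. Of these genes only Pigp, a match to Dppa5a, is listed in the matrix, at 39.5, 24.5, 40.2 and 27.6 CPM in libraries 1 to 4. How reads shared with such a transcript were assigned was not tested, so the Dppa5a level may include or miss some of them. Dppa1, the remaining gene of this naming series in the matrix, had 0 UMIs in libraries 1, 2 and 4 and 1 UMI in library 3. The floor of 3 UMIs that a count of 0 allows equals 0.0180, 0.0150 and 0.0172 CPM in the 3 libraries without a UMI.

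The 4 libraries held 7464 to 8514 cells after the study's cell filter as rebuilt here, 31989 of 41142 barcodes in all and more than the total the study states, with median UMI counts per cell of 18378 to 21897.5. The stem cell factor Pou5f1 was at 663 to 847 CPM and had a UMI in 93.0% to 98.2% of cells thinned to 5000 UMIs, so the cells carried the marker of their label. Libraries 1 to 4 had 387, 533, 238 and 356 CPM of Srrm2, the gene hit by the trap. Of the kept barcode sequences, 105 occurred in more than 1 library. Levels are UMIs of a gene per 1000000 UMIs of a library's kept cells (CPM), where 1 UMI stands for 1 captured transcript and no division by length is made. Intervals are exact 95% intervals for counting error only.

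In libraries 1, 2, 3 and 4 the level of Dppa2 was 109, 80.8, 108 and 62.4 CPM. Libraries 1 and 3 could not be separated, with a ratio of 1.01 (0.992 to 1.03), and both lay above library 2 and library 4. For Dppa4, its partner, the level was 108, 132, 118 and 121 CPM in the same order. The order of libraries for Dppa4 was thus not that for Dppa2: library 2, below libraries 1 and 3 for Dppa2, was first for Dppa4, and library 1 was last. With TMM scaling Dppa4 was at 116, 128, 118 and 115 CPM, with library 4 last, and Dppa2 at 118 and 108 CPM in libraries 1 and 3, so the place of library 1 depended on the scaling while library 2 was first for Dppa4 in either case. Dppa4 UMIs per Dppa2 UMI numbered 0.984 (0.964 to 1.01), 1.63 (1.60 to 1.66), 1.09 (1.07 to 1.11) and 1.95 (1.90 to 1.99) from library 1 to library 4. Neighbouring genes on 1 strand therefore kept unlike proportions from library to library, nearly equal in libraries 1 and 3 and with Dppa4 in excess in libraries 2 and 4.

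Dppa3 was the least abundant of the 4, at 24.4, 74.0, 48.8 and 60.7 CPM. Library 1 stood lowest, by 2.00-fold (1.93 to 2.08) against the next library, and each other step in the order also exceeded counting error. Dppa5a was the most abundant, at 5161, 3433, 4064 and 2424 CPM. Its order of libraries, 1, 3, 2 and 4, was that of Dppa2. For Dppa3 the order was 2, 4, 3 and 1. These orders of Dppa2, Dppa3 and Dppa5a were unchanged with trimmed-mean (TMM) or median-of-ratios scaling.

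Highest over lowest library, the range was 1.75-fold for Dppa2 (1.71 to 1.80), 1.22-fold for Dppa4 (1.198 to 1.245), 3.04-fold for Dppa3 (2.93 to 3.15) and 2.13-fold for Dppa5a (2.12 to 2.14). With TMM scaling the ranges were 2.00-fold, 1.11-fold, 2.74-fold and 2.43-fold in the same order of genes. Each lay outside its interval, which holds counting error only. At least 1.5-fold was reached by 3 of 4 members and by 41.0% of the 11099 genes with 200 or more UMIs in every library, so passing that mark set little apart. By size, the Dppa3 range was wider than that of 94.98% of those genes, the Dppa5a range wider than that of 86.4% and the Dppa2 range wider than that of 74.9%. The Dppa4 range was wider than that of 22.7% of genes and lay below the median gene, at 1.42-fold. Without library 4 the count was 2 of 4 members, and without library 1 the Dppa3 range was 1.52-fold, so its size rested on library 1.

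**Figure D1:**
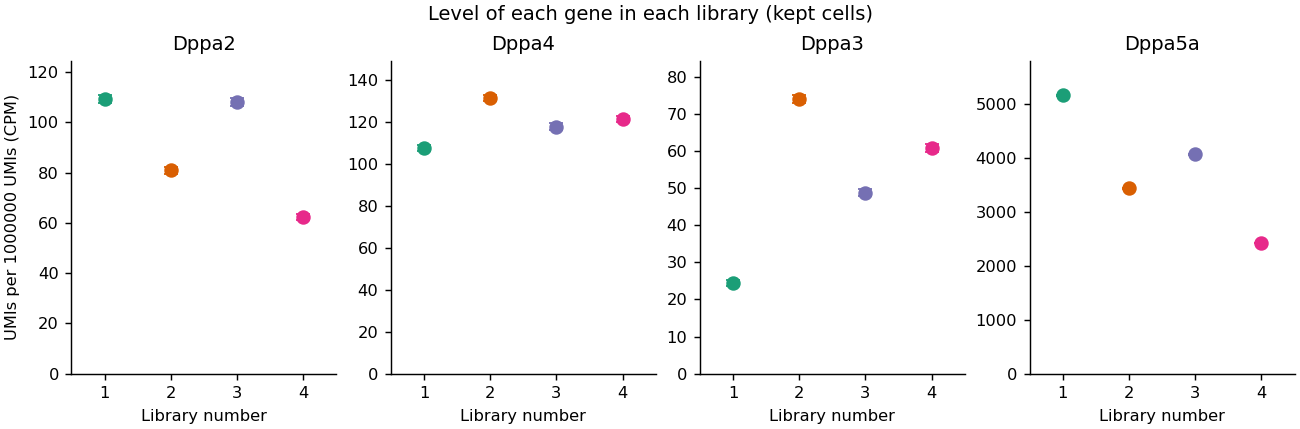
Level of Dppa2, Dppa4, Dppa3 and Dppa5a (vertical axes, CPM, each from 0) in libraries 1 to 4 (horizontal axes), with bars for exact 95% Poisson intervals. Dppa5a lies between 2424 and 5161 CPM and the other 3 genes between 24.4 and 132 CPM, and Dppa4 is the flattest across libraries.

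Within libraries the genes differed in how evenly cells shared their transcripts. To compare cells at 1 depth, each was thinned to 5000 UMIs, which left out 0 kept cells, and the variance of a gene's UMIs over cells was divided by its mean, a ratio that equals 1 for counting error alone. For Dppa4 this ratio was 1.02, 1.05, 1.119 and 1.11 in libraries 1 to 4, and for Dppa2 it was 1.08, 1.06, 1.16 and 1.07. For Dppa3 the ratio was 1.73, 1.82, 1.81 and 1.90, and for Dppa5a it was 4.36, 3.66, 7.34 and 5.76. A ratio of at least 1.2 in all 4 libraries was found for Dppa3 and Dppa5a and for 5.68% of the 4667 genes with a thinned mean of at least 0.1 UMIs.

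The variance over mean grows with level, so the variance beyond counting was also divided by the squared mean. On this scale of excess spread Dppa3 was at 5.74, 2.20, 3.25 and 3.01. That was more than for 99.6% to 99.9% of the genes compared, depending on the library. Dppa5a was at 0.128, 0.154, 0.298 and 0.390, Dppa2 at 0.147, 0.145, 0.295 and 0.208, and Dppa4 at 0.0452, 0.0742, 0.203 and 0.180. Dppa5a was thus nearer to Dppa2 and Dppa4 on this scale, and Dppa3 was the most uneven member in each library. In libraries 1 to 4, Dppa5a had more excess spread than 68.2%, 74.5%, 84.8% and 91.3% of the genes compared. The shares were 73.0%, 72.6%, 84.4% and 78.4% for Dppa2 and 33.6%, 49.1%, 74.0% and 74.4% for Dppa4.

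The unevenness of Dppa3 showed in its counts per cell. A Dppa3 UMI was found in 8.87% (8.26 to 9.51), 23.4% (22.5 to 24.3), 16.5% (15.6 to 17.3) and 18.7% (17.8 to 19.6) of thinned cells, libraries 1 to 4. Counting alone at the same means would give 11.9%, 31.0%, 22.1% and 25.9%, so fewer cells than that held any Dppa3. Conversely, 3 or more UMIs were held by 0.788%, 3.27%, 1.98% and 2.92% of cells, where counting alone would give 0.0312%, 0.645%, 0.216% and 0.359%. In library 1 that was 64 cells and in libraries 2 to 4 it was 278, 156 and 218 cells. Without thinning, a Dppa3 UMI was present in 21.1%, 49.0%, 35.6% and 40.9% of cells at their full depth. In cells with keratin transcripts, described further on and low in naive genes, the share was 1.45%, 0%, 3.46% and 2.83% of thinned cells, with median depths of 25053, 22831, 25696.5 and 23622 UMIs, below the share over all cells in each library.

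**Figure D2:**
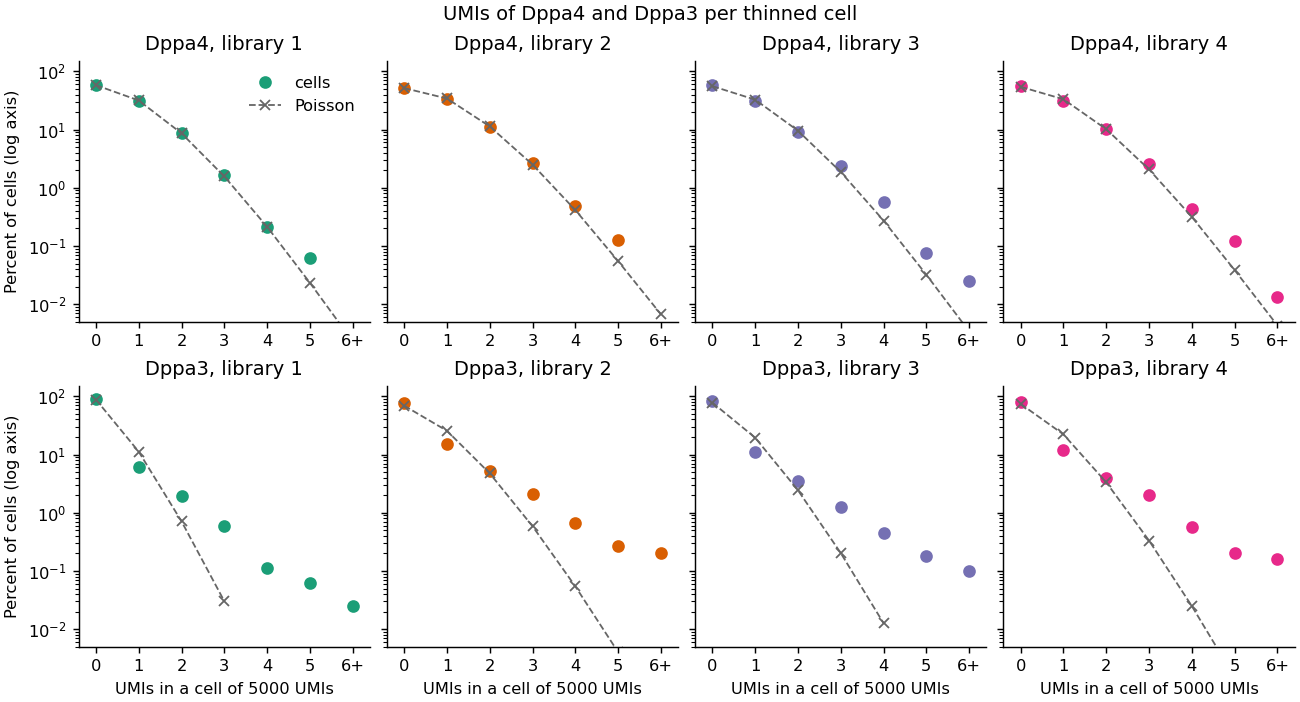
Percent of cells (vertical axes, log scale) by the number of Dppa4 UMIs (top row) and Dppa3 UMIs (bottom row) in a cell thinned to 5000 UMIs, for libraries 1 to 4, with crosses for a Poisson distribution of the same mean. Dppa4 lies near the crosses from 0 to 2 UMIs, whereas Dppa3 has fewer cells at 1 UMI and more at 3 or more UMIs than the crosses in every library.

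Thinning depth did not change which members were uneven. At 2500 UMIs the variance over mean was 1.29 to 1.47 for Dppa3 and at 10000 UMIs it was 2.39 to 2.78, while Dppa4 stayed at 1.02 to 1.06 and 1.09 to 1.196. The library with the widest spread of Dppa4 changed with the depth, from library 2 at 2500 UMIs to library 3 at 5000 and library 4 at 10000 UMIs. Dppa2 reached 1.33 in library 3 at 10000 UMIs and was otherwise under 1.2. Averaged within 5 classes of the pluripotency score introduced next, the Dppa3 ratio was 1.73 to 1.78, close to its value over all cells, and the Dppa5a ratio was 2.70 to 4.80, below its 3.66 to 7.34.

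Pluripotent cells in culture range from a naive state, near that of the early epiblast, to a formative state that has begun to leave it. Each cell was scored by the log2 ratio of its UMIs from 10 naive genes (such as Klf2, Zfp42 and Esrrb) to those from 10 formative genes (such as Dnmt3b, Pou3f1 and Otx2), with 1 added to each sum, and no Dppa gene was in either panel. The cells of a library were then divided into 5 classes of equal size, from class 1, the least naive, to class 5, the most naive. Scores differed between libraries: the median score of class 1 was 1, -2.17, -1.32 and -3.32 from library 1 to library 4. Class 1 of library 1 was therefore still on the naive side, and the span of states within that library was the narrowest.

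Dppa3 was higher with a more naive score in 3 of the libraries. Its levels in class 1 were 22.0, 22.2, 16.3 and 12.8 CPM, and those in class 5 were 23.0, 99.6, 60.3 and 126 CPM. The log2 differences were 0.06 (-0.09 to 0.21), 2.16 (2.06 to 2.27), 1.89 (1.76 to 2.02) and 3.29 (3.15 to 3.44), so library 1 showed no difference beyond counting. In library 4 the level climbed through all 5 classes, whereas in libraries 2 and 3 most of the rise lay between class 1 and class 3. In libraries 2, 3 and 4 fewer than 1.5% of the 9633 genes tested had a larger difference.

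Dppa5a was higher in class 5 than in class 1 of every library. Its levels in class 1 were 4024, 1941, 1468 and 1181 CPM, against 5589, 4133, 5436 and 3865 CPM in class 5. These were log2 differences of 0.47, 1.09, 1.89 and 1.71, with counting intervals no wider than 0.02 to either side. In library 1 the step lay between class 1 and class 2, at 5351 CPM, and the curve was nearly level after that.

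Dppa2 and Dppa4 differed less than Dppa5a in each library and less than Dppa3 in libraries 2 to 4. Dppa2 had 92.8, 71.5, 54.4 and 47.6 CPM in class 1 and 113, 78.2, 126 and 66.6 CPM in class 5, log2 differences of 0.29, 0.13, 1.21 and 0.48. Dppa4 had 105, 128, 89.1 and 99.6 CPM in class 1 and 106, 125, 120 and 128 CPM in class 5. Its log2 differences were 0.02 (-0.05 to 0.09), -0.03 (-0.09 to 0.02), 0.43 (0.36 to 0.49) and 0.36 (0.30 to 0.43), so it differed beyond counting in libraries 3 and 4 alone. The excess of Dppa4 over Dppa2 UMIs was largest in class 1 of every library, at 1.13, 1.79, 1.64 and 2.09 Dppa4 UMIs per Dppa2 UMI, against 0.935, 1.60, 0.949 and 1.92 in class 5. In library 4 the intervals of the 2 classes overlapped (1.97 to 2.22 and 1.83 to 2.03).

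By the mark of 1.5-fold, 7 of the 16 gene and library values were higher in class 5 and 0 were lower. Of all genes tested, 6.31%, 13.1%, 21% and 14.7% were lower in libraries 1 to 4. Library 1 gave 0 of 4 members higher against 0.737% of all genes tested, library 2 gave 2 of 4 (Dppa3 and Dppa5a) against 7.9%, library 3 gave 3 of 4 (with Dppa2) against 9.16%, and library 4 gave 2 of 4 (Dppa3 and Dppa5a) against 9.66%. In library 1 the difference was larger than that of 98.1% of the genes tested for Dppa5a and of 93.2% for Dppa2. The shares there were 71.0% for Dppa3 and 64.0% for Dppa4. None of the 4 genes passed in all 4 libraries, as 0.612% of genes did, with another 4.94% lower in all 4. Without library 1, Dppa3 and Dppa5a passed in the remaining 3 libraries, as did 498 genes (5.01%) in place of 59. Across all genes the median log2 difference was -0.05, -0.10, -0.15 and -0.11, slightly below 0 in each library. Relative to that median gene, 8 of the 16 values passed, and Dppa4 in library 2 was then at 0.06 instead of -0.03.

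**Figure D3:**
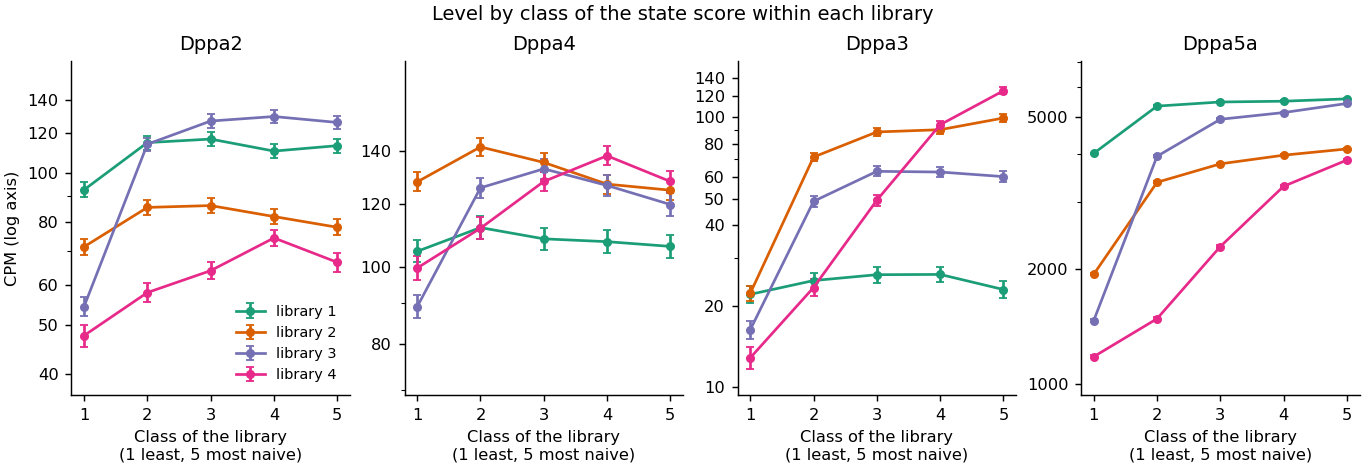
Level of each gene (vertical axes, CPM on a log scale) in 5 classes of equal size per library, ordered by the naive to formative score (horizontal axes), with 1 line per library and bars for exact 95% Poisson intervals. Dppa3 climbs from 12.8 to 126 CPM in library 4 and stays between 22.0 and 26.1 CPM in library 1, and Dppa4 changes little.

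Class 1 also held other cells. Cells with 3 or more UMIs of Krt8 and Krt18, keratins of simple epithelia, among their 5000 thinned UMIs made up 4.13%, 2.00%, 29.6% and 3.68% of class 1 in libraries 1 to 4. Without these cells the log2 differences in library 3 were 0.63 instead of 1.21 for Dppa2, 0.16 instead of 0.43 for Dppa4, 1.17 instead of 1.89 for Dppa3 and 1.245 instead of 1.89 for Dppa5a. In that library, then, part of each difference went with the keratin cells. In library 4 the share of keratin cells was higher in class 2 (7.23%) and class 3 (7.97%) than in class 1, so few cells of class 1 were removed there, and Dppa3 was at 3.25 instead of 3.29. The count of values past 1.5-fold was again 7 of 16. This comparison was added after the data had been seen.

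Because class limits were set within each library, the same class meant different scores in different libraries. Cells were therefore also put into 5 common classes with the same score limits in every library. The share of cells in common class 1 was 3.12%, 18.5%, 14.4% and 48.4% from library 1 to library 4, and that in common class 5 was 39.7%, 12.4%, 21.3% and 3.75%. Libraries 1 and 4 thus lay at opposite ends in make-up, and the limits allowed members to be compared between libraries at more similar scores. Common class 1 has no lower limit and common class 5 no upper limit, so scores within these could still differ between libraries.

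Within common classes the libraries still differed for Dppa3. Its levels in common class 5 were 24.3, 102, 59.5 and 143 CPM, and in common class 3 they were 27.1, 86.7, 63.0 and 113 CPM. Library 1 was lowest and library 4 highest in all 5 common classes, by 2.90-fold to 6.69-fold, compared with 3.04-fold over all cells, where library 2 was highest. In common class 2 libraries 4 and 2 were close, at 74.0 and 72.8 CPM.

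Dppa5a behaved in the other way. Its levels in common class 5 were 5552, 4213, 5462 and 4165 CPM, a range of 1.33-fold. In common classes 2 to 5 its range was 1.33-fold to 1.44-fold, against 2.13-fold over all cells. In common class 1 the range was 1.92-fold, near the whole-library range in size but with another order. There Dppa5a was at 970, 1862, 1234 and 1445 CPM in libraries 1 to 4, lowest in library 1, which was highest over all cells. Dppa4 ranged 1.17-fold to 1.33-fold in common classes 2 to 5 and 1.85-fold in common class 1, wider there than its 1.22-fold over all cells. Dppa2 ranged 1.83-fold to 2.11-fold in common classes 3 to 5, where libraries 1 and 3 (112 to 129 CPM) lay above library 2 (76.8 to 83.5 CPM) and library 4 (60.6 to 70.3 CPM). In common class 2 the Dppa2 range was 1.36-fold. In common class 1 it was 2.90-fold with another order, at 24.2, 70.0, 50.7 and 54.6 CPM in libraries 1 to 4.

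A comparison of common class 5 with common class 1, added after the data had been seen, used the same score limits in each library. Both classes are open at their outer ends, so the distance in score could still differ between libraries. Dppa3 was higher in common class 5 by 7.46-fold (4.86 to 12.1), 5.16-fold (4.75 to 5.62), 4.81-fold (4.29 to 5.41) and 6.58-fold (6.06 to 7.14). Library 1, which had shown no difference between its own classes 1 and 5, had 253 cells with 21 Dppa3 UMIs in common class 1, at 3.25 CPM. Dppa5a was higher by 5.72-fold, 2.26-fold, 4.42-fold and 2.88-fold in libraries 1 to 4. Dppa3 and Dppa5a were thus at least 1.5-fold higher in all 4 libraries, as were 4.99% of the 9437 genes tested (8.47% were lower), while Dppa2 (4.64-fold, 1.10-fold, 2.52-fold and 1.11-fold) and Dppa4 (1.55-fold, 0.956-fold, 1.43-fold and 1.22-fold) were not.

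Keratin cells made up 13.0%, 1.84%, 31.3% and 6.09% of common class 1. Without them Dppa3 was higher by 6.67-fold, 5.07-fold, 3.75-fold and 6.25-fold, and Dppa2 by 4.11-fold, 1.09-fold, 1.97-fold and 1.07-fold. Dppa5a was then higher by 4.99-fold, 2.24-fold, 3.48-fold and 2.77-fold. Dppa4 was at 1.44-fold, 0.952-fold, 1.24-fold and 1.19-fold, under 1.5-fold in library 1 too. The Dppa2 difference in libraries 1 and 3 and its near absence in libraries 2 and 4 therefore remained with those cells removed.

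**Figure D4:**
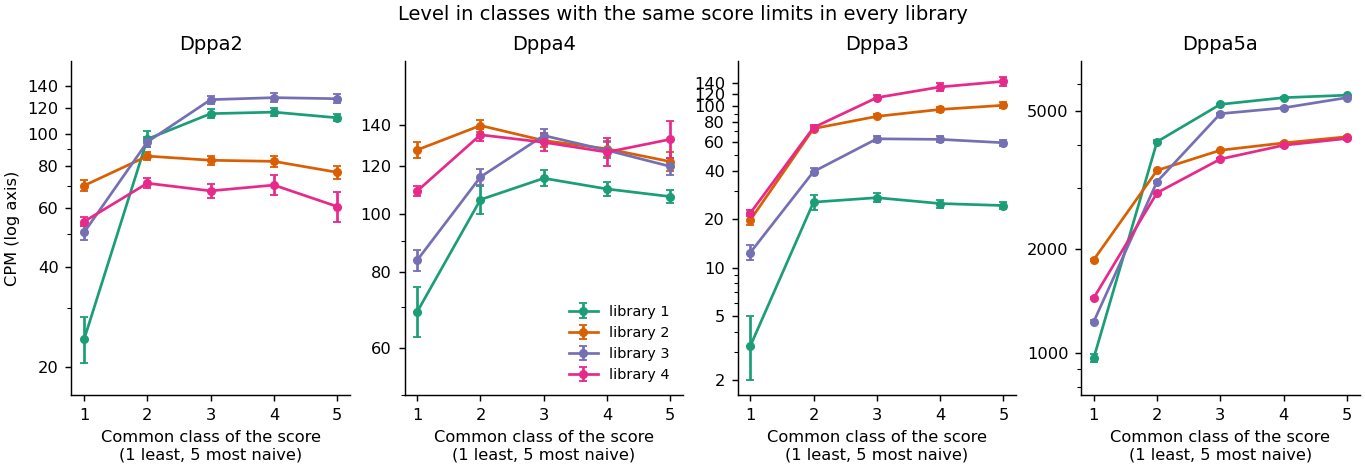
Level of each gene (vertical axes, CPM on a log scale) in 5 common classes that have the same score limits in every library (horizontal axes), with 1 line per library and bars for exact 95% Poisson intervals. The Dppa5a lines draw together from common class 2 on, within 1.44-fold, while the Dppa3 lines stay apart by 2.90-fold to 6.69-fold.

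The cells with keratin transcripts numbered 69, 44, 664 and 318 in libraries 1 to 4 and were low in all 4 Dppa genes. Dppa5a was at 720, 1099, 1036 and 788 CPM in them, or 0.138, 0.319, 0.233 and 0.314 of its level in the other cells of the library. Dppa3 was at 0.0789, 0.0607, 0.2495 and 0.159 of the other cells, on 4 and 5 UMIs in libraries 1 and 2. Dppa2 was at 0.163, 0.513, 0.244 and 0.480 and Dppa4 at 0.376, 0.651, 0.542 and 0.574 of the other cells. Against the expectation from each library's other cells, the 4 genes stood at 0.286 (Dppa2), 0.207 (Dppa3), 0.545 (Dppa4) and 0.241 (Dppa5a) over all 1095 cells, and 16.3% of the 12898 genes compared were at least 1.5-fold lower and 22.6% higher. The 1095 cells had 2.31 (2.14 to 2.51) Dppa4 UMIs per Dppa2 UMI, against 1.21 expected. How much of the Dppa4 excess in class 1 came from keratin cells was not tested. Pou5f1 was at 0.483 to 0.799 of the other cells, so these cells still held stem cell transcripts, and how much of that came from free RNA was not tested.

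Dppa2 and Dppa4 parted in the few cells that expressed genes of the two-cell embryo. Cells with at least 3 UMIs of a two-cell-like list (14 genes in the matrix, among them Zscan4 and Usp17l genes), counted without thinning, numbered 10, 7, 16 and 3 in libraries 1 to 4. Dppa2 was at 183, 245, 337 and 149 CPM in them, above the other cells of its library by 1.68-fold (1.09 to 2.46), 3.04-fold (1.94 to 4.52), 3.13-fold (2.59 to 3.75) and 2.39-fold (1.37 to 3.88). Dppa4 was at 70.5, 51.0, 66.2 and 46.5 CPM, or 0.654 (0.314 to 1.203), 0.388 (0.126 to 0.906), 0.561 (0.356 to 0.843) and 0.383 (0.124 to 0.894) of the other cells. The direction was the same in 4 of 4 libraries for each gene, and the interval included 1 for Dppa4 in library 1. Dppa4 rested on 10, 5, 23 and 5 UMIs, of which 1 cell held 20%, 60%, 30.4% and 100%.

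Over all 36 cells, 183 Dppa2 UMIs compared with 67.5 expected from the other cells of the same libraries, a fold of 2.71 (2.33 to 3.13), while 43 Dppa4 UMIs compared with 82.2 expected, a fold of 0.523 (0.379 to 0.705). That was 0.235 Dppa4 UMIs per Dppa2 UMI, against 1.22 expected. Dppa4 was not alone in being lower: with libraries pooled, Pou5f1 was at 0.679 (0.610 to 0.752) and Zfp42 at 0.645 (0.560 to 0.740) of the other cells. Nanog was at 0.908 (0.709 to 1.14). The median depth was 16131 UMIs against 20341 in the other cells. At full depth Dppa2 UMIs were found in 34 of the 36 cells, and in 82.2%, 78.7%, 79.6% and 67.0% of all kept cells of libraries 1 to 4. The richest of the 36 cells held 19.1% of their Dppa2 UMIs. By library the richest cell held 19.2%, 25%, 29.9% and 50% of the Dppa2 UMIs. Of 4229 genes with at least 20 expected UMIs, 3.14% were at least 1.5-fold higher and 17.3% at least 1.5-fold lower, and 99.5% had a smaller fold than Dppa2. Dppa3 was at 1.61-fold (1.21 to 2.10) and Dppa5a at 1.01-fold (0.977 to 1.05), with no common direction over libraries for either, and 1 cell held 80% to 87.5% of the Dppa3 UMIs in libraries 1, 2 and 4. The comparisons of keratin and two-cell-like cells were chosen after the data had been seen. With a limit of 2 or 5 two-cell-like UMIs the fold was 2.57 and 2.72 for Dppa2 and 0.538 and 0.507 for Dppa4.

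**Figure D5:**
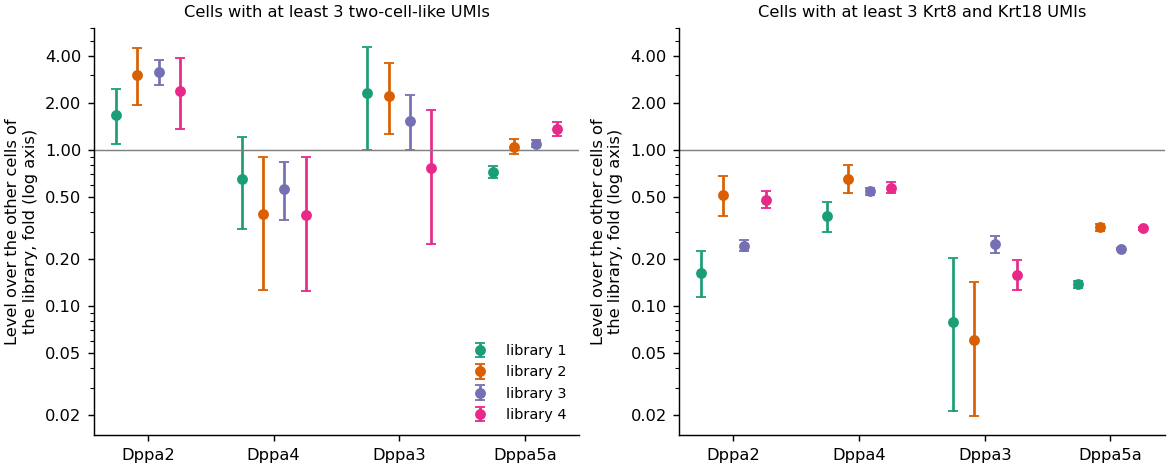
Level in 2 small groups of cells over the level in the other cells of the same library (vertical axes, fold on a log scale, line at 1), for each gene and library, with bars for exact 95% intervals. In cells with two-cell-like UMIs (left) Dppa2 lies above 1 and Dppa4 below 1 in 4 of 4 libraries, and in cells with keratin UMIs (right) all 16 values lie below 1.

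Of the genes that depend on the Dppa2 and Dppa4 pair in mESC, 4 had been listed. Trap1a, a tumour-rejection antigen gene on the X chromosome, was at 248, 198, 163 and 130 CPM and differed between class 5 and class 1 by log2 values of 0.36, 0.95, 1.60 and 1.51. Syce1, of the meiotic synaptonemal complex, was at 18.9, 8.88, 15.05 and 5.84 CPM, with class differences of 0.31, -0.09, 0.71 and -0.21. Mael, of the germline piRNA pathway, was at 9.60, 5.98, 12.2 and 6.84 CPM. Its class differences were -0.15 (-0.37 to 0.07), -0.93, -0.58 and -1.29, lower in class 5 beyond counting in libraries 2 to 4 and not in library 1. Syce1 and Mael, like Dppa2, were higher in libraries 1 and 3 than in libraries 2 and 4. Trap1a was not, as its library 3 lay below library 2. Pigp, Gdf3, Ooep and Khdc3, which are not on this list, were also higher in libraries 1 and 3. The share of all genes with this pattern was not computed. Nkx2-5 had 24 to 66 UMIs per library and was too sparse to follow. None of the 3 genes tested passed 1.5-fold between class 1 and class 5 in all 4 libraries, and with 4 libraries no correlation with Dppa2 was computed. Morc1, on the same strand at 111514 bp from Dppa2, was at 139, 143, 94.4 and 73.3 CPM and was higher in class 5 by log2 differences of 0.49, 1.72, 2.56 and 2.94. It is a neighbour named after its values had been seen, and its changes with the score were larger than those of Dppa2 or Dppa4 in each library.

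Uhrf1, the methylation cofactor that Dppa3 binds, was at 181, 171, 165 and 159 CPM, a range of 1.14-fold where Dppa3 ranged 3.04-fold. Of the 8 DNA methylation genes listed, 7 had enough counts. Tet2, an oxidase of methylated cytosine, passed 1.5-fold higher in class 5 in all 4 libraries, and Dnmt3a and Dnmt3b, the de novo methyltransferases, passed lower. Dnmt3a and Dnmt3b were in the formative panel that set the classes, so their fall is not a result. Tet2 differed by log2 values of 0.65, 2.14, 1.68 and 2.95, and Uhrf1 by 0.03, -0.08, 0.55 and 0.09. Of 9 germ cell genes, among which Dppa3 is usually counted, 6 could be tested, and Tfap2c and Kit were at least 1.5-fold higher in class 5 in all 4 libraries and 0 were lower. Of 5 core pluripotency genes Sox2 was higher and Lin28a lower. Over all 9633 genes tested, 0.612% were higher and 4.94% lower in all 4 libraries, and these counts of 1 or 2 genes per list are given as a description. Of the lists for primitive endoderm, trophectoderm, primed or streak cells and fibroblasts 0 genes had enough counts to be tested.

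On chromosome 6, Nanog, Gdf3 (a TGF-beta family ligand) and Slc2a3 (a glucose transporter) were expressed beside Dppa3, while Apobec1, an RNA-editing enzyme, was at or under 4.29 CPM. Nanog was at 154, 130, 103 and 61.9 CPM and Gdf3 at 134, 92.4, 107 and 71.4 CPM, both highest in library 1, where Dppa3 was lowest. Gdf3 was higher in class 5 by log2 differences of 0.41, 0.74, 0.90 and 0.77, a narrower set than those of Dppa3. Nanog was in the naive panel, and with Nanog left out of the score the Dppa3 differences were 0.05 to 3.29.

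Ooep, next to Dppa5a on chromosome 9, and Khdc3, a KH-domain partner of Ooep in the oocyte, differed between class 1 and class 5 by more than Dppa5a, Ooep in 4 libraries and Khdc3 in 3. Ooep differed by log2 values of 0.55, 1.73, 2.71 and 2.65 and Khdc3 by 0.17, 2.67, 2.83 and 4.55. In library 1 the Khdc3 difference was below that of Dppa5a, at 0.47. The levels of Ooep were 241, 144, 162 and 87.0 CPM, in the same order of libraries as Dppa5a, and those of Khdc3 were 49.1, 32.6, 38.4 and 29.2 CPM, in that order too. The remaining 3 genes of the KH list, Khdc1a, Khdc1b and Khdc1c, had at most 2 UMIs in a library.

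Cells with 3 or more thinned Dppa3 UMIs were compared with cells that had 0. Dppa5a was at 1.04-fold (1.02 to 1.07) in library 1, 1.23-fold in library 2, 1.29-fold in library 3 and 1.75-fold in library 4. The intervals hold counting error only and leave out the spread between cells. In library 1, with 64 Dppa3-rich cells, the variance of Dppa5a over all thinned cells was 4.36 times the mean. The 1.04-fold there is therefore not called a difference. Dppa2 was at 1.06-fold (0.891 to 1.24), 1.11-fold, 1.14-fold and 1.10-fold (0.983 to 1.23), and Dppa4 at 1.22-fold (1.04 to 1.42), 1.00-fold (0.933 to 1.07), 1.22-fold (1.11 to 1.35) and 0.979-fold (0.899 to 1.06). In libraries 2 and 4 the Dppa5a fold lay above the counting intervals of both, and in libraries 1 and 3 it lay within that of Dppa4. Whether the genes differed beyond the spread between cells was not tested.

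Khdc3, of the KH list, was at 101 CPM in the Dppa3-rich cells of library 1 against 47.3 CPM in cells without Dppa3, and at 86.8 against 26.9 CPM, 76.7 against 33.9 CPM and 93.4 against 22.3 CPM in libraries 2, 3 and 4. The folds were 2.14 (1.78 to 2.55), 3.22 (2.94 to 3.53), 2.26 (1.98 to 2.58) and 4.20 (3.79 to 4.64). Zfp42 and Nanog, of the naive panel, were at 0.992-fold (0.916 to 1.07) and 1.03-fold (0.896 to 1.19) in library 1, so there the Khdc3 difference came without a difference beyond counting in these 2 genes. The summed formative panel was lower in the Dppa3-rich cells of library 1, at 202 against 246 CPM in cells without Dppa3. The summed naive panel was at 1952 against 1925 CPM. In library 4 Zfp42 and Nanog were at 2.08-fold and 2.24-fold.

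Of 5792 genes with at least 20 expected UMIs in the Dppa3-rich cells of every library, 7 were at least 1.5-fold higher in all 4 libraries (0.121%) and 15 were at least 1.5-fold lower (0.259%). Named after their values had been seen, the 7 were Khdc3, Rhox5, Rhox9, Sdc4, Calml4, Klhl13 and Ly6g6e. Rhox9, a reproductive homeobox gene on the X chromosome, had the largest folds, 3.65 (2.86 to 4.60), 4.62 (4.10 to 5.18), 2.64 (2.08 to 3.31) and 6.32 (5.53 to 7.21). Rhox5, of the same cluster and known to be silenced by DNA methylation in many tissues, was at 1.63-fold (1.40 to 1.90), 2.35-fold, 1.96-fold and 3.22-fold. Sdc4, a cell-surface proteoglycan gene, was at 2.16-fold, 1.71-fold, 1.63-fold and 1.80-fold. The smallest fold of the 7 genes was 1.51 (1.07 to 2.07), for Ly6g6e in library 3.

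Correlations over cells are given as a description, computed in each library on counts thinned to the same depth, and the median of 4 libraries is quoted over 6553 genes with a thinned mean of at least 0.05 UMIs. The genes most like Dppa5a were Ifitm1 (0.47), Klf2 (0.46), Zfp42 (0.46), Tdh (0.45) and Hsp90aa1 (0.43), and those least like it were Pim2 (-0.42), Actg1 (-0.41) and Pou3f1 (-0.40). Ifitm1 encodes an interferon-induced membrane protein, Tdh the threonine dehydrogenase of mESC, Hsp90aa1 a chaperone, Pim2 a kinase and Actg1 an actin. In library 4 the value for Ifitm1 was 0.65 and in library 1 it was 0.34.

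For Dppa3 the highest medians were those of Dppa5a (0.16), Ifitm1 (0.13), Eif2s2 (0.12), Khdc3 (0.12) and Fabp3 (0.12), and the lowest those of Meg3 (-0.14), Mdk (-0.13) and Pou3f1 (-0.12). For Dppa2 and Dppa4 the highest was Dppa5a, at 0.12 and 0.09. The other genes named by the rule lay between 0.06 and 0.09 on the high side (Tdh and Ifitm1 for both genes, Hspb1 and Zfp42 for Dppa2, Hsp90aa1 and Klf2 for Dppa4) and between -0.08 and -0.07 on the low side (Actg1 for both, Fabp5 and Pim2 for Dppa2, Mdk and Cald1 for Dppa4). Dppa2 with Dppa4 gave 0.04, 0.03, 0.07 and 0.07 in libraries 1 to 4. In counts as sparse as those of Dppa2, Dppa3 and Dppa4 such weak values are no finding.

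Dppa3 and Dppa5a differed less along the cell cycle, depth or mitochondrial share than along the naive score in libraries 2 to 4. How all genes differed along the cell cycle, depth and mitochondrial share was not computed, so the folds below have no background beside them. In library 1 the G2/M folds given next were above the folds along the score for Dppa4 (1.01), Dppa2 (1.22) and Dppa3 (1.04), with overlapping intervals for Dppa2 and Dppa3, and in library 2 Dppa4 also differed more along G2/M than along the score. Between the 20% of cells with most and the 20% with fewest G2/M transcripts, Dppa4 was higher by 1.202-fold, 1.17-fold, 1.33-fold and 1.122-fold, beyond counting in each library. Dppa2 was higher by 1.26-fold, 1.04-fold (log2 interval -0.01 to 0.13), 1.41-fold and 1.09-fold, while Dppa3 was at 1.10-fold, 0.960-fold, 1.14-fold and 0.971-fold, with intervals that included 1 in libraries 1, 2 and 4. Between the cells with most and fewest S-phase transcripts Dppa3 was at 0.936-fold, 0.870-fold, 1.44-fold and 0.892-fold, beyond counting in libraries 2, 3 and 4. Between cells with the most and the fewest UMIs, Dppa5a was at 0.910-fold, 0.953-fold, 0.743-fold and 0.949-fold. Between cells with the highest and the lowest mitochondrial share it was at 1.22-fold, 0.994-fold, 1.89-fold and 1.22-fold. For Dppa5a library 3 thus moved most on both of these axes. It also held most keratin cells, whose median UMI count was 25696.5 against 19123 in its other cells. Whether the keratin cells account for these Dppa5a differences was not tested.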

How the data were processed

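Libraries were made with the Chromium Single Cell 3′ v3 kit. Per the labels and the file headers, the authors aligned reads to mm10 with Cell Ranger 6.1.2 and joined the libraries with its aggregation step, which subsamples reads to even out depth, so differences in depth were reduced before deposit. The deposited values are raw UMI counts per gene and barcode (41142 barcodes), with the study's cell filter not applied.

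The study's filter was applied here per library: UMIs and detected genes at or above the mean minus 1 SD, and a mitochondrial share of at most 10%. The 9535, 11736, 9697 and 10174 barcodes of libraries 1 to 4 left 8118, 8514, 7893 and 7464 cells with 166839268, 200180473, 172407338 and 174050451 UMIs. Counts were summed per library or class. Since no library could be tied to a labelled sample and cells are not replicates, the group tests the counts would allow were not possible, and no p-value or SD over libraries is given. Levels have exact Poisson intervals, ratios exact conditional binomial intervals and shares Clopper-Pearson intervals, all at 95% and for counting error only. Genes entered a class comparison with at least 200 UMIs over both classes in every library. State classes used counts thinned to 5000 UMIs per cell, drawn without replacement. Doublets were not called, and 1615 cells above 2 times their library's median UMIs were left out in an alternative.

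Named genes were the 4 members, the genes of the lists, and per member the 5 genes with the highest and the 3 with the lowest median correlation. Further named genes are marked as chosen after their values were seen. The members and lists were chosen with earlier results of these data known. The folds, spread measures and intervals were tested on simulated data. Gene positions and copies came from GENCODE M21 (GRCm38). Alternatives covered cell filters, scaling, the score, class number, thinning depth and leaving out each library. Analyses used Python 3.11.15, numpy 2.4.6, scipy 1.17.1 and pandas 2.3.3. 1 gene of the lists is not reported here.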

Additional observations from a re-analysis of the deposited data

How the results depend on the processing

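No paired analysis was possible because the libraries carry no tie to the labelled samples and hence to their replicate numbers. The count of members ranging at least 1.5-fold over libraries was 3 with all barcodes, with the mean over cells, with trimmed-mean or median-of-ratios scaling and without cells of very high UMI count, and 2 to 3 with 1 library left out (2 without library 4). The count of class 5 values at least 1.5-fold higher was 7 or 8 of 16, and 0 were lower, under each alternative. The count of values with variance at least 1.2 times the mean was 8 or 9. No called value changed sign. The sizes of the log2 differences did change with the setting, in both directions and beyond their counting intervals. Dppa5a in library 3 was at 1.22 with 3 classes and at 2.20 with the unthinned score, against 1.89. Dppa3 in library 2 was at 1.24 and 2.31 in these settings, against 2.16.

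The background counts moved more. Genes at least 1.5-fold higher in all libraries numbered 59, but 110 with the unthinned score, 10 with 3 classes in place of 5, 35 without cells of very high UMI count, 89 with the naive panel alone, 249 with no count minimum, 38 without keratin cells and 100 relative to the median gene, and 62 to 498 with 1 library left out. Genes lower numbered 476, but 1470 with no count minimum and 484 to 1088 with 1 library left out. The upper ends were reached without library 1, when Dppa3 and Dppa5a were among the 498 genes (5.01% of 9938 tested). Where fewer libraries or a lower count minimum had to be passed, more genes could pass by construction, and for the other settings the cause was not tested. Without library 2, 3 or 4 the genes higher numbered only 62, 67 and 68, so the rise to 498 came with library 1 left out. The last 2 named settings in the list, without keratin cells and relative to the median gene, were chosen after the data had been seen. Dppa3 in library 1 had an uncalled log2 difference of 0.06 (-0.09 to 0.21), on 811 and 730 UMIs in classes 1 and 5. It fell to -0.10 without cells of very high UMI count. The interval of the main value included no difference and lay below the 1.5-fold mark. Depth limits Dppa3 in common class 1 of library 1, on 21 UMIs, and Dppa4 in two-cell-like cells, on 43 UMIs.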
